A study of Homo sapiens with 4 samples.

Results

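The 40 genes described here are ATF4, its partner transcription factors and target genes, and the cytosolic aminoacyl-tRNA synthetases, many of which ATF4 also induces. A gene was a member where a probe set of the array names it alone, which held for 38 of the 40 genes with 74 probe sets, out of 13717 genes measured. The methionine and glutamine enzymes MARS1 and QARS1 have only probe sets shared with another gene and are not analysed here. Jurkat is an established human T cell leukaemia line. The control line carried a control construct, called a vector in the sample titles and a control shRNA in the design text, and the shIKKE line carried a short hairpin RNA against IKKε, a kinase related to TBK1. Each line received solvent, or PMA at 10 ng/ml with ionomycin at 0.5 uM, for 3 h; PMA activates protein kinase C and ionomycin raises cell calcium. This gave 4 groups of 1 array each. The labels do not say whether each line was a clone or a pool, and name no further hairpin. With 1 array per group, differences between arrays have no replicate error, are given without a p-value, and cannot separate the group from the sample.

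ATF4 is the main effector of the integrated stress response. Kinases that sense unfolded protein, amino acid shortage, haem shortage or double-stranded RNA phosphorylate the initiation factor eIF2, which lowers protein synthesis in general but raises translation of the ATF4 message, so that ATF4 protein can change with little change in ATF4 mRNA. ATF4 then pairs with C/EBP family proteins on the C/EBP-ATF response element and induces genes for amino acid uptake, serine and asparagine synthesis and tRNA charging. In activated T cells these same products supply amino acids for growth.

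The targeted gene IKBKE read 339.9 with solvent and 520.2 with stimulation in the control line, and 180.2 and 248 in the shIKKE line by its brightest probe set, a log2 difference between the lines of -0.87 with solvent and -1.03 with stimulation. Its second probe set gave 0.38 and -0.15, higher in the shIKKE line with solvent. The activation gene CD69 read 1425 with solvent and 14797 with stimulation in the control line, and 428 and 20144 in the shIKKE line. The cytokine gene IL2 read 4.4 with solvent and 245 with stimulation in the control line, and 14.5 and 629 in the shIKKE line. For both genes the stimulated arrays lay far above the solvent arrays. The early response gene EGR1 read 9953 with solvent and 23198 with stimulation in the control line, and 1035 and 18503 in the shIKKE line, so the solvent array of the control line was the higher of the solvent arrays. T cell markers summed to signals of 72556 to 79568 on the 4 arrays, with all 12 past the filter, against 409 to 667 for 5 B cell markers, 88.4 to 224 for 4 myeloid markers and 108 to 206 for 4 erythroid and epithelial markers. The 3 sums of other cell types were highest on the stimulated shIKKE array, and their part in the results was not tested. The median signal over all probe sets lay between 48.8 and 69.1, highest on that same array, and the 5′ to 3′ ratio of ACTB signal, which falls as RNA degrades or is labelled short, between 0.244, on the solvent array of the control line, and 0.401, on its stimulated array. The same ratio for GAPDH lay between 1.04, on the solvent array of the shIKKE line, and 1.17, on its stimulated array. The part of these measures in the results was not tested.

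The response element was searched before these genes as a description. The list was made of ATF4 targets and related genes, so its share of matches is not independent of how it was chosen. The letters TGATGNAA were searched on both strands in the 250 bases before each annotated start, in RefSeq sequences of build GRCh38.p14; no other motif was searched. Of the 34 listed genes found in that table, 7 had a match, or 20.6%, against 3.89% of all 27305 gene symbols in it. PSPH, SHMT2, SLC7A11, LARS1, VARS1 and YARS1 were not matched to the table. The 7 windows with a match are given 5′ to 3′ on the strand of the gene, with the matched bases in capitals. Elements outside these 250 bases or of another form were not searched, so these 7 need not be all the members with one.
CHAC1: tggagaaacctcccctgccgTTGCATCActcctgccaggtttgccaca
AARS1: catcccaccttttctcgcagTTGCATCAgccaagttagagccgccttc
CEBPG: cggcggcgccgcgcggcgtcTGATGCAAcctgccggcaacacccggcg
ASNS: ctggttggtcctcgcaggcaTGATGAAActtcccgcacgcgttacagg
SLC1A5: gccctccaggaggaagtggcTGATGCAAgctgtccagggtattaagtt
GARS1: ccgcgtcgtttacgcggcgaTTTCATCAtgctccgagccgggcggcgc
IARS1: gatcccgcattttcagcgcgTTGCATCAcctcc
On the plus strand, the window of CHAC1 lies at chr15:40953242-40953289, that of CEBPG at chr19:33374051-33374098 and that of GARS1 at chr7:30594825-30594872. On the minus strand, the window of AARS1 lies at chr16:70289666-70289713, that of ASNS at chr7:97872449-97872496, that of SLC1A5 at chr19:46784884-46784931 and that of IARS1 at chr9:92293698-92293730. In CEBPG, ASNS and SLC1A5 the match reads in the direction of the gene, and in CHAC1, AARS1, GARS1 and IARS1 the capitals are its reverse complement. ASNS and GARS1 hold the form TGATGAAA and the other 5 hold TGATGCAA. The whole stretch of 250 bases before the start of CHAC1, the gene with the largest difference between the lines' responses among the members, at chr15:40953221-40953470 on the plus strand, shows its match 209 to 202 bases before the start.
CHAC1: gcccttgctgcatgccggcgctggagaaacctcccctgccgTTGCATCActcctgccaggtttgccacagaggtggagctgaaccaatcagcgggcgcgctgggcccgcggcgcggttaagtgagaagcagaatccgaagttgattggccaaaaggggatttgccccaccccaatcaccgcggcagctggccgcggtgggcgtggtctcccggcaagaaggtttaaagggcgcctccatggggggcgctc
A match is a description of the letters and not a measured binding site.

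Most of the members kept their level within 2-fold across all 4 arrays. The signals below are MAS5 values on a linear scale, and a log2 difference is that of the signal plus 14.1 between 2 arrays, with 2-fold (log2 of 1) as the limit for counting. Of 38 members, 29 had their highest and lowest arrays less than 2-fold apart, or 76.3%, against 67.9% of all genes and 81.3% of the 9604 genes whose mean level reached that of the lowest member. In bulk RNA, fewer cells that express a gene and less RNA per cell cannot be told apart. With stimulation in the control line 3 members were at least 2-fold higher, DDIT3, SLC7A11 and SLC7A5 (background over all genes 7.57%), and 3 were lower, VLDLR, CHAC1 and AARS1 (6.44%). In the shIKKE line 3 were higher, DDIT3, EIF2AK3 and CHAC1 (10.3%), and 0 were lower (2.68%). In the shIKKE line over the control line with solvent, VARS1 was higher (1 of 38; background 4.34%) and VLDLR and CHAC1 were lower (2 of 38; 6.68%). With stimulation, CHAC1 was higher (1 of 38; 5.99%) and 0 were lower (2.37%). These shares lie near the backgrounds, and so are no result about the members as a group; what follows is a description of single genes. Quantile normalization of the arrays, added to the deposited scaling, moved the share of higher among the called genes from 54% to 40.6% and from 79.4% to 53.3% for stimulation in the control and shIKKE lines, and from 71.7% to 59.3% between the lines with stimulation, and moved the direction of members only where their difference was close to 0 (at most log2 0.07). With it, 5 members were higher with stimulation in the shIKKE line. The response of the control line and the comparison of the lines with solvent both use the control line's solvent array, and the other neighbouring comparisons share an array in the same way.

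Of the transcription factors, DDIT3 was the member with the largest response in both lines. DDIT3 encodes CHOP, a C/EBP-related factor induced by ATF4. DDIT3 read 364 with solvent and 1467 with stimulation in the control line, and 437 and 2458 in the shIKKE line. Both stimulated arrays lay above both solvent arrays, with log2 differences of 1.97 and 2.45 for stimulation, or 3.92-fold and 5.48-fold. It was the only one of the 38 members at least 2-fold higher in both, where the background is 3.29%. ATF4 itself read 17884 with solvent and 18758 with stimulation in the control line, and 18191 and 17861 in the shIKKE line. Its 4 values spanned log2 0.07, the narrowest range among the members. ATF5, a related factor, read 391 with solvent and 616 with stimulation in the control line, and 595 and 615 in the shIKKE line, so that the solvent array of the control line was the low one. CEBPB, a C/EBP factor of inflammation and a dimer partner of ATF4, read 3414 with solvent and 5611 with stimulation in the control line, and 2589 and 5098 in the shIKKE line. Both stimulated arrays were again higher, by log2 0.71 and 0.97, within 2-fold. CEBPG, the dimer partner whose promoter window is among the sequences above, read 1533 with solvent and 1247 with stimulation in the control line, and 1517 and 1925 in the shIKKE line, with log2 differences of -0.29 and 0.34 for stimulation. The stimulated arrays were thus lower in the control line and higher in the shIKKE line.

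**Figure D1:**
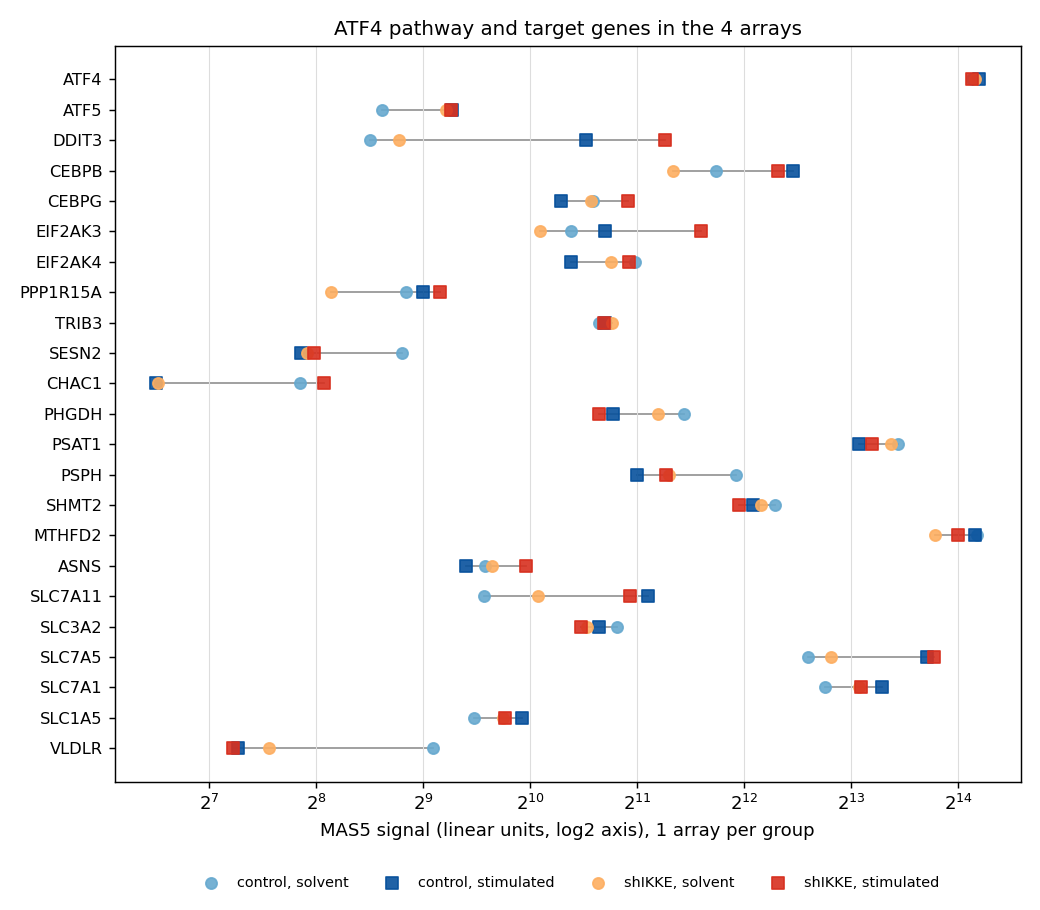
MAS5 signal (linear units on a log2 axis) of 23 members outside the synthetases, 1 point per array, with a line from the lowest to the highest array of each gene; positions of different genes are not comparable because each has its own probes. Stimulated arrays (squares) lie to the right of solvent arrays (circles) for ATF5, DDIT3, CEBPB, EIF2AK3, PPP1R15A, SLC7A11, SLC7A5, SLC7A1 and SLC1A5, and to the left for PHGDH, PSAT1, PSPH, SHMT2 and VLDLR; the ATF4 points overlap, and CHAC1 has the stimulated control and solvent shIKKE arrays at 90.9 and 92.0.

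Of the kinases and feedback genes, CHAC1 was past 2-fold in all 4 comparisons and EIF2AK3 in 1. CHAC1 encodes an enzyme that breaks down glutathione and is a target of ATF4. CHAC1 read 231 with solvent and 90.9 with stimulation in the control line, and 92.0 and 269 in the shIKKE line. Its signal was thus high on the solvent array of the control line and the stimulated array of the shIKKE line, and low on the other pair. The log2 differences were -1.22 for stimulation in the control and 1.42 in the shIKKE line, and the difference between these responses was 2.64. Between the lines they were -1.21 with solvent and 1.43 with stimulation. These 4 differences come from the same 4 arrays, and each uses 1 signal of the low pair, not far above the filter of 56.4. Over all genes, 100 of 13717 (0.729%) were lower with stimulation in the control line but higher in the shIKKE line, each by 2-fold or more, and 47 also crossed 2-fold both ways between the lines. EIF2AK3, encoding the unfolded-protein sensor kinase PERK, read 1331 with solvent and 1667 with stimulation in the control line, and 1094 and 3095 in the shIKKE line. The stimulated shIKKE array was the high one, with log2 differences of 0.32 for stimulation in the control and 1.49 in the shIKKE line. EIF2AK4, encoding the amino acid sensor kinase GCN2, read 2019 with solvent and 1330.5 with stimulation in the control line, and 1724 and 1942 in the shIKKE line, with the stimulated control array as the low one (log2 -0.60 and 0.17).

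PPP1R15A encodes GADD34, which directs a phosphatase to eIF2 and so ends the response. PPP1R15A read 457 with solvent and 511 with stimulation in the control line, and 283 and 572 in the shIKKE line by its brightest probe set. The solvent array of the shIKKE line was the low one, with log2 differences for stimulation of 0.15 (control) and 0.98 (shIKKE). By its second probe set it read 316 with solvent and 250.3 with stimulation in the control line, and 80.3 and 315 in the shIKKE line, and these differences were -0.32 and 1.80. Both probe sets had the low value on the same array. SESN2, a stress gene that restrains mTORC1 in leucine shortage, read 446 with solvent and 233 with stimulation in the control line, and 241 and 253 in the shIKKE line. By this brightest probe set the solvent array of the control line stood above the other 3, with log2 differences of -0.90 for stimulation and -0.85 between the lines with solvent. The dimmer second probe set of SESN2 read 91.7 with solvent and 48.5 with stimulation in the control line, and 62.5 and 117 in the shIKKE line. By that one the stimulated shIKKE array was the highest. TRIB3, a pseudokinase that is a target and an inhibitor of ATF4, read 1596 with solvent and 1666 with stimulation in the control line, and 1739 and 1654 in the shIKKE line, a range of log2 0.12. For the difference of the lines' responses, EIF2AK3, CHAC1 and VLDLR had the higher response in the shIKKE line by 2-fold or more (3 of 38; background 11.4%), and VARS1 was lower (1 of 38; background 4.67%).

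**Figure D2:**
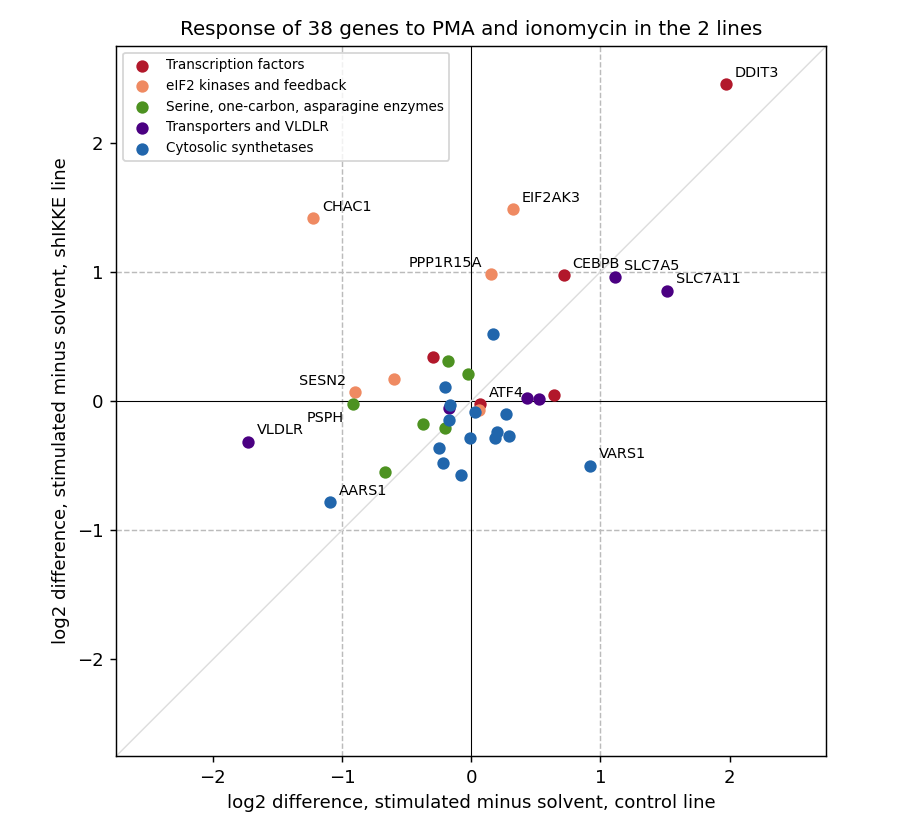
Each point is 1 of the 38 members; the x axis is the log2 difference of stimulated minus solvent in the control line and the y axis the same in the shIKKE line, which share no array. Dashed lines mark 2-fold and the diagonal equal responses: DDIT3 lies beyond 2-fold in both lines at 1.97 and 2.45, and CHAC1 beyond 2-fold in opposite directions at -1.22 and 1.42.

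The 6 enzymes of serine, one-carbon and asparagine synthesis stayed within 2-fold in the 4 comparisons. By their brightest probe sets all 6 read lower with stimulation in the control line, MTHFD2 by only log2 -0.02. So did 7507 of all 13717 genes and 5554 of the 9604 genes at or above the level of the lowest member. PSPH, the phosphatase that completes serine synthesis, read 3875 with solvent and 2049.8 with stimulation in the control line, and 2508 and 2471 in the shIKKE line. The solvent array of the control line was the high one (log2 -0.91 for stimulation in that line, -0.02 in the shIKKE line). PHGDH, which catalyses the first step of serine synthesis, read 2779.8 with solvent and 1749 with stimulation in the control line, and 2342 and 1597 in the shIKKE line. It was lower on both stimulated arrays, with log2 differences of -0.66 and -0.55. PSAT1, the transaminase between them, read 11108 with solvent and 8591 with stimulation in the control line, and 10606 and 9374 in the shIKKE line, and was lower on both stimulated arrays too (log2 -0.37 and -0.18). Of these, the PSPH value in the shIKKE line turned to the other side of 0 under quantile normalization. SHMT2, the mitochondrial enzyme that splits serine into glycine and a one-carbon unit, read 4998 with solvent and 4339 with stimulation in the control line, and 4567 and 3959 in the shIKKE line (log2 -0.20 and -0.21). MTHFD2, which carries the one-carbon unit onward, read 18499.5 with solvent and 18204 with stimulation in the control line, and 14084 and 16302 in the shIKKE line, so that its stimulated values lay between its solvent values. ASNS, the asparagine synthetase and a standard reporter of ATF4 activity, read 765 with solvent and 675 with stimulation in the control line, and 801 and 995 in the shIKKE line, with the stimulated shIKKE array as the highest (log2 -0.18 in the control and 0.31 in the shIKKE line).

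Among the amino acid transporters, the paired subunits did not move alike. SLC7A11 is the light chain of the cystine-glutamate exchanger and SLC7A5 that of the large neutral amino acid transporter LAT1, which activated T cells need for leucine uptake; SLC3A2 is the heavy chain of both. SLC7A11 read 762 with solvent and 2198 with stimulation in the control line, and 1074 and 1955 in the shIKKE line. SLC7A5 read 6199 with solvent and 13404 with stimulation in the control line, and 7177 and 13966 in the shIKKE line. For both light chains the stimulated arrays lay above the solvent arrays, by log2 1.51 and 0.86 for SLC7A11 and 1.11 and 0.96 for SLC7A5 in the control and shIKKE lines. The difference in the shIKKE line missed 2-fold in each case. The heavy chain SLC3A2 read 1799 with solvent and 1598 with stimulation in the control line, and 1479 and 1423 in the shIKKE line, lower on both stimulated arrays with log2 differences of -0.17 and -0.06. SLC7A1, the cationic amino acid transporter CAT1, read 6921 with solvent and 9989 with stimulation in the control line, and 8622 and 8704 in the shIKKE line, and SLC1A5, the glutamine transporter ASCT2, read 713 with solvent and 968 with stimulation in the control line, and 859.6 and 872 in the shIKKE line. In both genes the solvent array of the control line was the low one, and the responses were log2 0.53 and 0.43 in the control line and 0.01 and 0.02 in the shIKKE line. VLDLR, a lipoprotein receptor induced by ATF4, read 544 with solvent and 155 with stimulation in the control line, and 189 and 149 in the shIKKE line. Its solvent value in the control line stood above the other 3, with log2 differences of -1.73 for stimulation in that line and -1.46 between the lines with solvent, while stimulation in the shIKKE line gave -0.31.

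Of the 15 measured cytosolic synthetases, which join each amino acid to its tRNA, 13 had all 4 arrays within a 2-fold span, and AARS1 and VARS1 did not. This share of 86.7% is near the 81.3% of the 9604 genes at or above the level of the lowest member, and all genes had 67.9%. That level is a floor and not a match to the level of the synthetases. AARS1, the alanine enzyme, read 4234 with solvent and 1976 with stimulation in the control line, and 2456 and 1423 in the shIKKE line. The stimulated array was the lower one in each line (log2 -1.09 and -0.78), and the shIKKE line was the lower one in each treatment (log2 -0.78 with solvent and -0.47 with stimulation). VARS1, the valine enzyme, read 1005 with solvent and 1915 with stimulation in the control line, and 2072 and 1462 in the shIKKE line. The solvent array of the control line was the low one, with log2 differences of 0.92 for stimulation in the control line, -0.50 in the shIKKE line and 1.03 between the lines with solvent. WARS1, the tryptophan enzyme, which is also induced by interferon gamma, read 1005 with solvent and 1235 with stimulation in the control line, and 1849 and 1533 in the shIKKE line. It was higher in the shIKKE line by log2 0.87 with solvent and 0.31 with stimulation, and its second probe set gave 0.95 and 0.32.

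**Figure D3:**
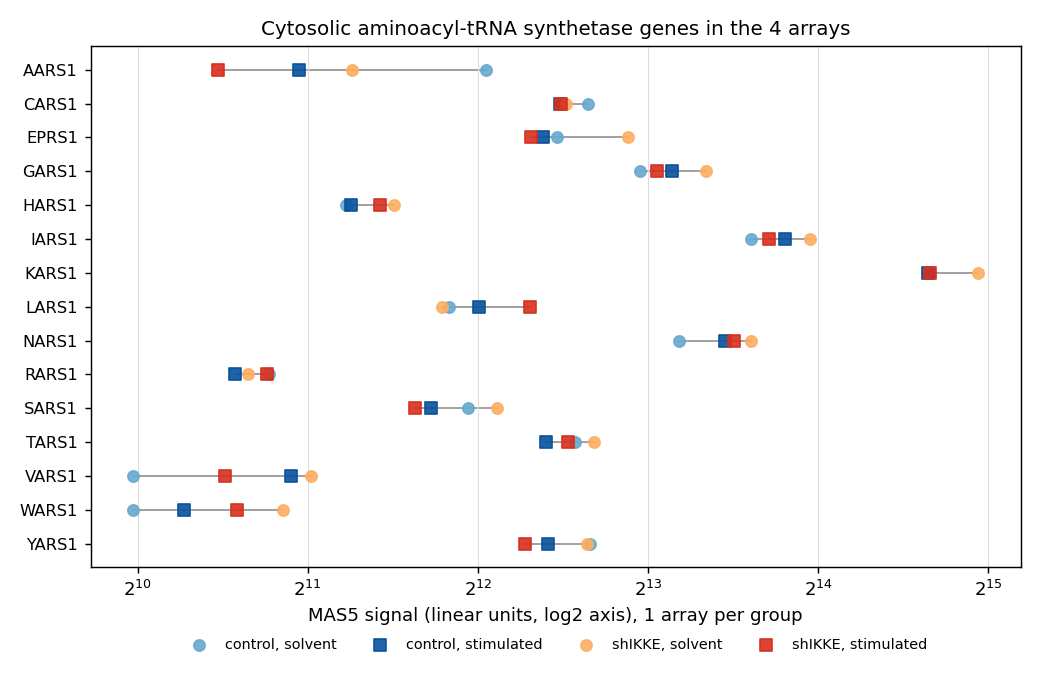
MAS5 signal (linear units on a log2 axis) of 15 cytosolic synthetase genes, 1 point per array, with a line from the lowest to the highest array. The solvent array of the shIKKE line (orange circles) is the highest for 10 of the 15 genes (66.7%, against 24.6% of all genes), and AARS1 and VARS1 have the longest lines.

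The other synthetases had small differences. EPRS1, the glutamate and proline enzyme, read 5643 with solvent and 5333 with stimulation in the control line, and 7561 and 5088 in the shIKKE line. GARS1, the glycine enzyme, read 7932 with solvent and 9028 with stimulation in the control line, and 10361 and 8488 in the shIKKE line. NARS1, the asparagine enzyme, read 9313 with solvent and 11208 with stimulation in the control line, and 12468 and 11622 in the shIKKE line. In these 3 genes, as in HARS1, IARS1, KARS1, SARS1, TARS1, VARS1 and WARS1, the solvent array of the shIKKE line was the highest of the 4. By the brightest probe sets that was so for 10 of 15 cytosolic synthetases (66.7%). The share was 24.6% of all genes and 28.3% of the 9604 genes at or above the level of the lowest member. That array was also the highest for 66.7% of mitochondrial synthetases, 55% of unfolded protein response genes and 47.4% of eIF2 machinery genes. It was the highest for 20.6% of further ATF4 and amino acid response genes and 4.35% of the 23 members outside the synthetases. IARS1, the isoleucine enzyme, read 12479 with solvent and 14296 with stimulation in the control line, and 15845 and 13397 in the shIKKE line, and KARS1, the lysine enzyme, read 25880.4 with solvent and 25651 with stimulation in the control line, and 31454 and 25855 in the shIKKE line. Each was highest with solvent in the shIKKE line, by log2 0.34 and 0.28 over the control line. HARS1, the histidine enzyme, read 2396 with solvent and 2439 with stimulation in the control line, and 2913 and 2747 in the shIKKE line. SARS1, the serine enzyme, read 3939 with solvent and 3379 with stimulation in the control line, and 4434 and 3172 in the shIKKE line. TARS1, the threonine enzyme, read 6088 with solvent and 5406 with stimulation in the control line, and 6573 and 5922 in the shIKKE line. Their excess in the shIKKE line with solvent was log2 0.28, 0.17 and 0.11. The synthetases outside these 10 genes, AARS1 among them, had other orders. LARS1, the leucine enzyme, read 3647 with solvent and 4108 with stimulation in the control line, and 3537 and 5073 in the shIKKE line, highest on the stimulated shIKKE array. CARS1, the cysteine enzyme, read 6410.4 with solvent and 5718 with stimulation in the control line, and 5876 and 5746 in the shIKKE line. RARS1, the arginine enzyme, read 1749.8 with solvent and 1520.3 with stimulation in the control line, and 1608 and 1737 in the shIKKE line. YARS1, the tyrosine enzyme, read 6476 with solvent and 5458 with stimulation in the control line, and 6378 and 4955 in the shIKKE line. All of them had their highest signal with solvent in the control line, and their ranges over the 4 arrays were log2 0.16, 0.20 and 0.39.

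As a list, the cytosolic synthetases had a median log2 difference of 0.28 in the shIKKE line over the control line with solvent, where all genes had -0.05, and of 0.01 with stimulation, where all genes had 0.03. With stimulation their median was -0.01 in the control line (all genes -0.07) and -0.27 in the shIKKE line (all genes -0.01), where 2 of 15 were above 0, LARS1 and RARS1, and 3 under quantile normalization, which added CARS1. The 9604 genes at or above the level of the lowest member had a median of -0.09 there. Under quantile normalization the synthetases had 0.17 between the lines with solvent (all genes -0.04), and -0.12 for stimulation in the shIKKE line, close to the -0.09 of all genes. The list of mitochondrial synthetases, which shares no gene with the cytosolic list, had medians of 0.38 and 0.02 between the lines and 0.01 and -0.26 for stimulation. In it, 10 of 15 were highest with solvent in the shIKKE line. Under quantile normalization these 4 medians were 0.44, 0.05, -0.05 and -0.32, and the median for stimulation in the control line changed sign. Of the 15, PARS2 read 315 with solvent and 76.7 with stimulation in the control line, and 209 and 189.7 in the shIKKE line, at least 2-fold lower with stimulation in the control line (log2 -1.86) and higher in the stimulated shIKKE line than in the stimulated control line (1.17). HARS2 read 975 with solvent and 588 with stimulation in the control line, and 1033 and 497 in the shIKKE line, lower with stimulation in the shIKKE line (log2 -1.04), and CARS2 and EARS2 were the largest between the lines with solvent (log2 0.90 and 0.60). Further values were -0.75 for AARS2 and -0.88 for EARS2 with stimulation in the shIKKE line, -0.72 for HARS2 and 0.58 for CARS2 with stimulation in the control line, and -0.65 for EARS2 and 0.45 for YARS2 between the lines with stimulation. The 13 mitochondrial genes besides PARS2 and HARS2 stayed within 2-fold in the 4 comparisons, and each of the 3 calls is 1 of 15 genes (6.67%), against 6.44%, 2.68% and 5.99% of all genes for PARS2 and HARS2 with stimulation and PARS2 between the lines. Of 4 further cytosolic genes, the phenylalanine enzyme subunits FARSA and FARSB, AIMP1 of the multi-synthetase complex and TARS3, 0 were past 2-fold in either direction, and they differed by log2 0.92, 0.59, 0.30 and 0.75 between the lines with solvent. The 23 members outside the synthetases had medians of -0.13 and -0.003 between the lines and -0.02 and 0.07 for stimulation.

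**Figure D4:**
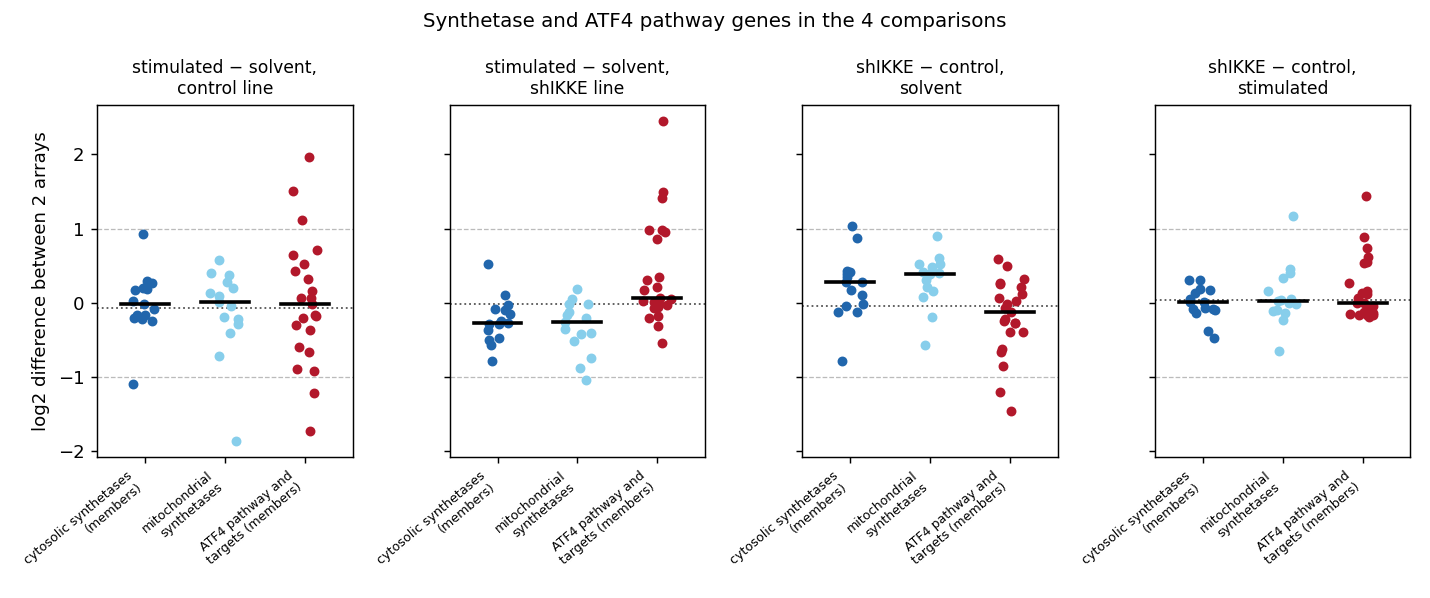
Log2 differences between 2 arrays in each of the 4 comparisons for 15 cytosolic synthetases, 15 mitochondrial synthetases and 23 further members; each point is a gene, black bars are medians, dashed lines mark 2-fold and the dotted line is the median of all 13717 genes. Both synthetase lists sit above the dotted line in the comparison of the lines with solvent (medians 0.28 and 0.38) and below it for stimulation in the shIKKE line (-0.27 and -0.26); under quantile normalization the latter are -0.12 and -0.32, with all genes at -0.09, so the cytosolic list then lies near it.

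The genes around the pathway were read in the same way. Of 19 measured genes of the eIF2 machinery upstream of ATF4 (20 listed), 18 stayed within 2-fold in the 4 comparisons, and 1 (5.26%) was higher with stimulation in the control line and between the lines with solvent, against 7.57% and 4.34% of all genes. The exception was EIF5, an initiation factor that acts with eIF2, which read 4433 with solvent and 12285 with stimulation in the control line, and 12228 and 13186 in the shIKKE line. Its solvent value in the control line was the low one (log2 1.47 for stimulation and 1.46 between the lines with solvent). The largest differences of the others were in PPP1R15B, the constitutive relative of PPP1R15A, with log2 0.70 for stimulation in the shIKKE line and -0.73 between the lines with solvent, and in DNAJC3, an inhibitor of the eIF2 kinases, with 0.75 between the lines with stimulation. The kinase genes EIF2AK1 and EIF2AK2 differed by log2 -0.45 and 0.44 for stimulation in the control line. EIF2B4, a subunit of the exchange factor eIF2B, and GCN1, an activator of GCN2, differed by -0.54 and -0.52 for stimulation in the shIKKE line, and EIF2B4 by 0.65 between the lines with solvent. PPP1CB, a catalytic phosphatase subunit, and EIF2A differed by 0.31 and 0.26 between the lines with stimulation. None of these 6 genes reached 2-fold in any of the 4 comparisons.

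Of 34 further ATF4 and amino acid response genes (43 listed), 0 were at least 2-fold higher and 4 lower with stimulation in the control line (0% and 11.8%, against 7.57% and 6.44% of all genes). In the shIKKE line 3 were higher and 0 lower (8.82% and 0%, against 10.3% and 2.68% of all genes). Of the 9604 genes at or above the level of the lowest member, 4.16% were higher and 1.27% lower, though some genes of this list are dimmer than that. ATF3, a factor that ATF4 induces and that acts with it on CHAC1, read 1407 with solvent and 548 with stimulation in the control line, and 329 and 1109.7 in the shIKKE line. KLHL24 read 1629 with solvent and 541 with stimulation in the control line, and 450.2 and 759 in the shIKKE line. Both had their highest signal with solvent in the control line and a higher stimulated than solvent signal in the shIKKE line, the same order of treatments in each line as CHAC1. The log2 differences for stimulation were -1.34 and 1.71 for ATF3, and -1.57 and 0.74 for KLHL24. CTH, which makes cysteine, and DDIT4, an inhibitor of mTORC1, were the others lower in the control line (log2 -1.29 and -1.13), and VEGFA and CCNG2 the others higher in the shIKKE line (1.68 and 1.21). Between the lines with solvent, 0 were higher and 6 lower in the shIKKE line (0% and 17.6%, against 4.34% and 6.68% of all genes), with ATF3 (-2.05), KLHL24 (-1.82) and the arginine transporter SLC7A3 (-1.68) the largest. With stimulation 0 were higher and 1 lower (2.94%, against 2.37% of all genes), SLC7A3 again (log2 -1.91), whose signal was 65.1 in the control and 7.0 in the shIKKE line, dim values on both arrays. ATF3 (0.999, just under 2-fold) and NIBAN1 (0.92) were higher.

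The unfolded protein response shares the kinase PERK with this pathway and has ATF6 and XBP1 as its other arms. Of 20 measured genes (21 listed), 0 were past 2-fold with stimulation in the control line, where 7.57% of all genes were higher and 6.44% lower. In the shIKKE line 1 was higher (5% against 10.3% of all genes) and 0 lower (2.68%), the higher one being ERO1B, an oxidase of the endoplasmic reticulum (log2 1.25). Between the lines with solvent 4 were higher in the shIKKE line and 1 lower (20% and 5%, against 4.34% and 6.68% of all genes). The higher ones were the chaperone gene HSPA5, which read 10521 and 23685 (log2 1.17), SDF2L1 (1.39), and the chaperone genes CALR (1.13) and HSP90B1 (1.02), while ERO1B was the lower one (-1.59). With stimulation 1 was higher (5% against 5.99%) and 0 lower (2.37%), the higher one being XBP1, with signals of 585 (control) and 1497 (shIKKE), log2 1.33, and CALR and DNAJB9 were next in size (0.92 and 0.85). For stimulation the largest values within 2-fold were 0.96 for HSPA5, -0.78 for XBP1 and -0.71 for ATF6 in the control line, and 0.80 for HERPUD1 and 0.68 for DNAJB9 in the shIKKE line.

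**Figure D5:**
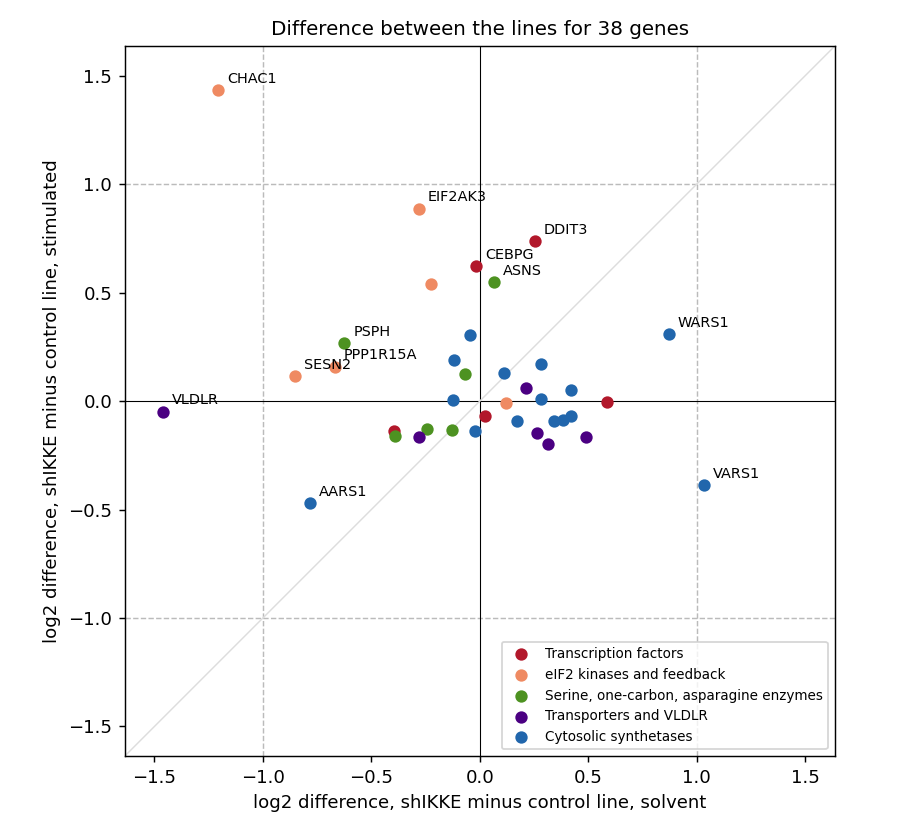
Each point is 1 of the 38 members; the x axis is the log2 difference of the shIKKE minus the control line with solvent and the y axis the same with stimulation, which share no array. Dashed lines mark 2-fold: VLDLR (-1.46) and CHAC1 (-1.21) lie beyond it to the left and VARS1 (1.03) to the right, and CHAC1 alone lies above 2-fold on the y axis (1.43).

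The average over the lines was the comparison that allowed a test. An additive limma model of line and stimulation over the 4 arrays has a single value per gene to estimate its spread (1 residual degree of freedom): how far the responses of the lines lie apart. The model holds no replicates. In its p-values and SE, limma combined that value with a spread estimated over all tested genes (3.7 prior degrees of freedom in the main setting). The set of genes tested depends on the filter. For stimulation, 0 of 38 members passed an adjusted p of 0.05 (limma; background 0.00729%, 1 gene), and 5 of 38 had an unadjusted p under 0.05 (background 13.8%). These were DDIT3 (log2 2.21 ± 0.27, SE; limma adjusted p = 0.114), SLC7A5 (1.04 ± 0.25; adjusted p = 0.212), SLC7A11 (1.18 ± 0.29; adjusted p = 0.217) and CEBPB (0.84 ± 0.25; adjusted p = 0.285), all higher with stimulation in both lines, and AARS1 (-0.94 ± 0.26; adjusted p = 0.253), lower in both. With the filter on dim probe sets raised to 4 times its level, 9579 genes were tested and 4 members passed, DDIT3 (limma adjusted p = 0.000228), SLC7A11 (0.0156), SLC7A5 (0.0211) and AARS1 (0.0377), with 6.3% of all genes. These 4 differences thus lay on either side of the threshold, depending on the filter. For the line, 0 of 38 members passed (limma; background 0%), also at an unadjusted p under 0.05 (background 7.29%), and AARS1 had the lowest adjusted p (0.687; log2 -0.63 ± 0.26, SE).

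Further probe sets limited some of these values. Of the 74 probe sets, 68 passed the filter, and 20 members had 30 further ones besides the brightest. For stimulation, 22 of these 30 had the sign of the brightest in the control and 17 in the shIKKE line; between the lines, 21 had it with solvent and 15 with stimulation. Many of the differences concerned are near 0. The values that follow are log2 differences of such a probe set in 4 comparisons, in the order of stimulation in the control line, stimulation in the shIKKE line, shIKKE over control with solvent, and shIKKE over control with stimulation. Of the members, 15 have 1 probe set each, so no second one bears on them. DDIT3, CHAC1, VLDLR, SLC7A5, AARS1, ATF4 and SLC3A2 are among these. The further probe sets of EIF2AK3, ASNS and VARS1 did not pass the filter. The second probe set of CEBPG gave -0.08, 0.21, -0.26 and 0.03, that of SESN2 -0.76, 0.77, -0.47 and 1.06, that of WARS1 0.54, -0.09, 0.95 and 0.32 and the brighter further one of SLC7A11 1.72, 0.71, 0.59 and -0.42. These 4 had the sign of the brightest in each comparison and were less than 2-fold apart from it. For CEBPG and SESN2, however, another array was the highest than by the brightest probe set.

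The others departed in at least 1 comparison. Among factors and feedback genes, ATF5 gave 1.30, -0.03, 0.99 and -0.34, larger than its brightest probe set where the solvent array of the control line is the low one. EIF2AK4 gave -1.01, -0.52, -0.68 and -0.19. TRIB3 gave 0.84, 0.29, 0.57 and 0.02. PPP1R15A gave -0.32, 1.80, -1.81 and 0.31, with the same low array as its brightest. Of the enzymes, PSAT1 gave -0.24, -0.74, 0.07 and -0.43 and MTHFD2 gave -0.19, -0.46, -0.12 and -0.39. PSPH gave -0.33, 0.10, -0.04 and 0.39 by its second probe set and 0.88, 1.24, -0.32 and 0.03 by a dim one. The first had its sign reversed only where the brightest was near 0, and the dim one was higher with stimulation where the brightest was lower. SHMT2 gave -0.12, 0.18, -0.36 and -0.06 by its second and 0.10, 0.04, -0.30 and -0.36 by the third probe set.

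Among the transporters, the dim probe set of SLC7A11 gave 0.37, 1.22, -0.41 and 0.45, so the 3 probe sets shared the direction of both responses. SLC7A1 gave 0.92, -0.67, 0.83 and -0.77 by a second probe set. The third gave 0.73, 0.18, 0.73 and 0.19, and the fourth, a dim one, -0.21, 1.23, -0.43 and 1.01. With stimulation in the shIKKE line these 3 went different ways, while the brightest was near 0. Of the synthetases, EPRS1 gave 0.02, -1.13, 1.20 and 0.06 by a dimmer and -0.11, -0.38, 0.32 and 0.05 by a brighter further probe set, and KARS1 gave 0.09, -0.46, 0.43 and -0.11. Both genes were highest with solvent in the shIKKE line by every probe set past the filter. CARS1 gave -0.15, -0.14, -0.34 and -0.33 by a second probe set, 0.68, -0.70, -0.04 and -1.42 by the third and -0.27, 0.17, -0.28 and 0.16 by the fourth. LARS1 gave 0.41, 0.17, 0.05 and -0.19 by a second, 0.15, -0.24, 0.36 and -0.02 by the third and 1.59, 0.68, 0.22 and -0.69 by the fourth, a dim one. The 4 LARS1 probe sets were higher with stimulation in the control line and differed in sign elsewhere. SARS1 gave -0.64, -0.11, -0.63 and -0.10, TARS1 gave -0.33, 1.80, -0.99 and 1.14 and YARS1 gave 0.99, 0.84, 0.17 and 0.01. Unlike its brightest, this SARS1 probe set was highest with solvent in the control line (933, against 600 with solvent in the shIKKE line). The TARS1 one, a dim one, was lowest with solvent in the shIKKE line (14.9), where its brightest was highest.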

How the data were processed

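RNA from 4 Jurkat samples was read on single-colour Affymetrix arrays with 54675 probe sets. The deposited values are linear signal intensities, made with MAS5 per the submitters' processing notes; the array software version is not given in the sources used here. Probe sets took their gene from the platform annotation where it names 1 symbol (41091 probe sets; 1801 name several and 11721 none), updated through RefSeq (41037 matched). Differences are of log2(signal + 14.1), the 25th percentile of all signals, which understates changes of dim genes. A probe set passed if its highest array reached 56.4, the median of all signals. A gene was read by its probe set of highest mean log2 value, leaving 13717 genes. With 1 array per group the number of arrays limits the precision. limma 3.58.1 in R 4.3.3 fitted line and stimulation with Benjamini-Hochberg adjustment over all genes, and was tested on simulated data.

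The members and lists were chosen with earlier results of these data known. All members were named; of each other list, up to 3 genes with the largest absolute difference per comparison were named. DDIT4, and CALR and HSP90B1 in the comparison with solvent, were named after their values were seen, to complete counts of 4. Further probe sets were given where they departed from the brightest. IKBKE, CD69, IL2 and EGR1 served as checks of the labels. Alternatives changed the pseudocount, normalization, filter and probe sets.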

Additional observations from a re-analysis of the deposited data

Results flagged for a closer look

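CHAC1 was lower with stimulation in the control line (log2 -1.22) and higher in the shIKKE line (log2 1.42), and it was lower in the shIKKE line than in the control line with solvent (log2 -1.21) and higher with stimulation (log2 1.43). It is listed because these differences were at least 2-fold in opposite directions. Each rests on 1 array per group, 1 probe set and a signal of 90.9 or 92.0, not far above the filter of 56.4. The difference between the lines was not tested.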

How the results depend on the processing

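With 1 array per group, no difference between arrays has a replicate check. Under 6 alternatives, 77 of 84 counts for the members and the synthetase lists stayed within 1.5 times. All 96 values of members past 2-fold kept their direction and stayed past 2-fold, but many of them could not change. The filter alternatives read these members by the same probe set, and members with 1 usable probe set have no other to read. SLC7A5, VLDLR and VARS1 had no value without probe sets that may match several transcripts, and are not counted there. Quantile normalization gave 5 members (not 3) higher with stimulation in the shIKKE line. Without probe sets that may match several transcripts, 26 members and 10 synthetases were measured: 0 members (not 1) were higher and 1 (not 2) lower with solvent in the shIKKE line, and 6 of 10 synthetases (not 10 of 15) were highest there, since fewer genes were left. With the median over probe sets, 6 members (not 3) had a higher and 3 (not 1) a lower response in the shIKKE line; the cause was not tested. The stricter filter, which tested 9579 genes, gave 4 members (not 0) for average stimulation. No paired analysis was possible because the labels give no replicate numbers and each group has 1 array. Dim probe sets limit SESN2, TARS1 and SLC7A3. The low CHAC1 signals, 90.9 and 92.0, lie not far above the filter of 56.4 and limit its values too.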
